A study of Homo sapiens with 6 samples.

Results

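The clustered protocadherin genes are the PCDHA, PCDHB and PCDHG genes, which lie in tandem on the plus strand of human chromosome 5. They were chosen by gene symbol from the deposited tables. Of 59 matching symbols, 6 pseudogenes were dropped, leaving 53 of 58395 genes: 15 in the alpha cluster, 16 in the beta cluster and 22 in the gamma cluster. The gamma cluster held 12 genes of the A type, 7 of the B type and 3 of the C type, and the alpha cluster held the other C-type genes, PCDHAC1 and PCDHAC2. In GENCODE annotation of GRCh38 the alpha cluster began at the PCDHA1 start (chromosome 5, 140786136), the beta cluster at PCDHB1 (141051135) and the gamma cluster at PCDHGA1 (141330571), and the whole array spanned 726.8 kb.

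RNA was measured in 6 clonal lines of HEK293, an established human embryonic kidney line. The GST lines 2, 8 and 9 expressed GST-3F, a tagged glutathione S-transferase that served as the control protein. The NOCT lines 4, 11 and 12 expressed NOCT ∆(2-15)-3F, a tagged nocturnin lacking residues 2 to 15, and nocturnin is a phosphatase that removes a phosphate from NADP(H). Every line was 1 clone, so the groups differed by clone as well as by protein, and the p-values below measure the spread between 3 clones a group. No untransfected line was analysed here.

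The gene counts of a library summed to between 19729745 and 24422406 reads. Reads of the GST construct numbered 46 to 88 in GST lines and 0 or 1 in NOCT lines, and reads of the NOCT construct 46 to 82 in NOCT lines and 3 to 7 in GST lines, as labelled. All 9 HEK293 markers examined had a mean of at least 1 CPM (counts divided by the library size after TMM scaling, times 1000000). None of 9 markers of blood, endothelium, liver and fibroblasts reached that mean, and CD3E and HBB had no count in any line. The fibroblast marker LUM exceeded 1 CPM in single lines. It stood at 1.45 and 1.30 CPM in NOCT lines 4 and 11, at 0 in NOCT line 12 and at 0.28 to 0.74 CPM in GST lines. Among 10 neuronal markers, 6 reached 1 CPM. One HEK293 and neuronal marker, the neurofilament gene NEFM, stood at 0.20 to 0.35 CPM in 5 lines and at 6.88 CPM in NOCT line 12. Some markers moved with the groups: the kidney transcription factor gene PAX2 had 4.76 ± 0.92 CPM in GST and 1.08 ± 0.30 CPM in NOCT lines, the keratin gene KRT8 85.9 ± 5.33 and 185.6 ± 71.0, and the neuronal genes MAP2 and INA 13.3 ± 2.81 and 25.9 ± 8.30, and 14.1 ± 4.69 and 27.3 ± 7.51 (SD, n = 3 each). No tested marker was called by edgeR (PAX2 had the smallest p of these 4, at 9.25e-05, adjusted p = 0.0567). An unadjusted edgeR p under 0.05 was reached by 4 of 8 tested HEK293 markers and 3 of 7 tested neuronal markers, beside 13.9% of all genes tested. Of these 8 HEK293 markers, 6 were higher and 2 lower in NOCT lines. Of the 7 neuronal markers, 5 were higher and 2 lower. Among the lower was SNAP25, at 2.56 ± 0.48 CPM in GST and 1.44 ± 0.71 CPM in NOCT lines (SD, n = 3 each). The part of the markers in the protocadherin levels was not tested. In such bulk samples, fewer cells that express a gene and less RNA per cell cannot be told apart.

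Clustered protocadherins are transmembrane cadherins that bind identical isoforms on neighbouring cells, and in neurons their combinations give each cell a surface identity used in self-recognition. Every alpha and gamma gene supplies its own first exon, with its own promoter, which is spliced to constant exons shared by the cluster, whereas beta genes lack constant exons. Neurons choose most alpha, beta and gamma isoforms by alternative promoters, with DNA methylation, CTCF and cohesin taking part in the choice, and express the C-type isoforms more constitutively. The letters CGCT form the core of a conserved element in most of these promoters.

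RefSeq promoters (GRCh38.p14) of 300 bases around the annotated start were found for 47 of the 53 genes. The following 26-base stretches, 5′ to 3′ on the plus strand with CGCT in capitals, show those letters with their surroundings in an abundant and a nearly silent alpha gene, in beta genes and in the leading gamma genes. Where a promoter held several, the one shown was chosen after viewing the sequences, and the letters alone do not mark the conserved element.

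PCDHA10: taaagccaccggatgtCGCTgtcgtc
PCDHA1: attggccacatgatgtCGCTgtacac
PCDHB2: aagagacgcggggtggCGCTgcagcc
PCDHB13: tgaggacgcgtggtggCGCTgcagga
PCDHB14: tggagacacatggtggCGCTacagga
PCDHGB5: tgctgactctgggcgcCGCTgttggc
PCDHGA11: aatgggctctaggcgcCGCTgctcac
PCDHGC3: ctgggactctgtgtgcCGCTgtcggc

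The alpha stretches lie at chr5:140855841-140855866 (PCDHA10) and chr5:140786086-140786111 (PCDHA1). The beta stretches lie at chr5:141094544-141094569 (PCDHB2), chr5:141213865-141213890 (PCDHB13) and chr5:141223263-141223288 (PCDHB14), and the gamma stretches at chr5:141397863-141397888 (PCDHGB5), chr5:141420972-141420997 (PCDHGA11) and chr5:141475880-141475905 (PCDHGC3). The CGCT began 40 bases before the start of PCDHA10, 38 before that of PCDHA1, 55 before that of PCDHB2 and 70 before that of PCDHGC3. The promoters of PCDHB2, PCDHB14, PCDHGB5 and PCDHGC3 held further upstream CGCT letters that are not shown.

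CGCT, searched on both strands, occurred in 46 of the 47 promoters, beside 68.8% of 27305 RefSeq promoters. On the plus strand within 100 bases before the start it occurred in 44 of 47, beside 27.5% of all promoters. Longer motifs that contain CGCT were chosen after the sequences had been viewed, and other motifs were also looked at. TGTCGCT was present in 10 of 13 alpha promoters (1.75% of all promoters), GGTGGCGCT in 13 of 14 beta promoters (0.524%) and GCGCCGCTG in 10 of 20 gamma promoters (1.24%), again on either strand. The promoters of PCDHAC1, PCDHAC2, PCDHGC3 and PCDHGC4 held CGCT and none of the longer motifs. The same held for those of PCDHB1, PCDHGA2, PCDHGB2, PCDHGB3, PCDHGA6 and PCDHGB7, which are not C-type genes. The letters were present in abundant and nearly silent genes alike: of the 10 alpha promoters with TGTCGCT, 3 belonged to genes with at least 10 counts in a line and 7 to genes below that. The 4 C-type promoters found were 59.0% to 66.0% G and C, above the 32.3% to 51.3% of the other 43. The median of all promoters was 58%, near the C-type promoters and above each of the other 43.

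At least 10 counts in 1 line or more, the level called detected here, were found for 37 of the 53 genes: 6 of 15 alpha, 10 of 16 beta and 21 of 22 gamma genes. Detection in every line held for 19 genes, of which 2 were alpha (PCDHA10 and PCDHAC2), 1 was beta (PCDHB2) and 16 were gamma. The 9 alpha genes from PCDHA1 to PCDHA9 had at most 6 counts in any line. PCDHGB4, with 2 to 9 counts, was the gamma gene below the level in each line. All 5 C-type genes were detected.

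Among GST lines, line 2 had 34 genes detected, line 8 had 27 and line 9 had 32. Among NOCT lines, line 4 had 29, line 11 had 28 and line 12 had 19. NOCT line 12 thus held the shortest set, with 2 alpha genes, 1 beta gene and 16 gamma genes. Its counts were 0 for 8 alpha and 8 beta genes and for no gamma gene, and a count of 0 allows up to 3 counts, or 0.151 CPM in that library. These limits and the intervals below cover counting error only.

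**Figure D1:**
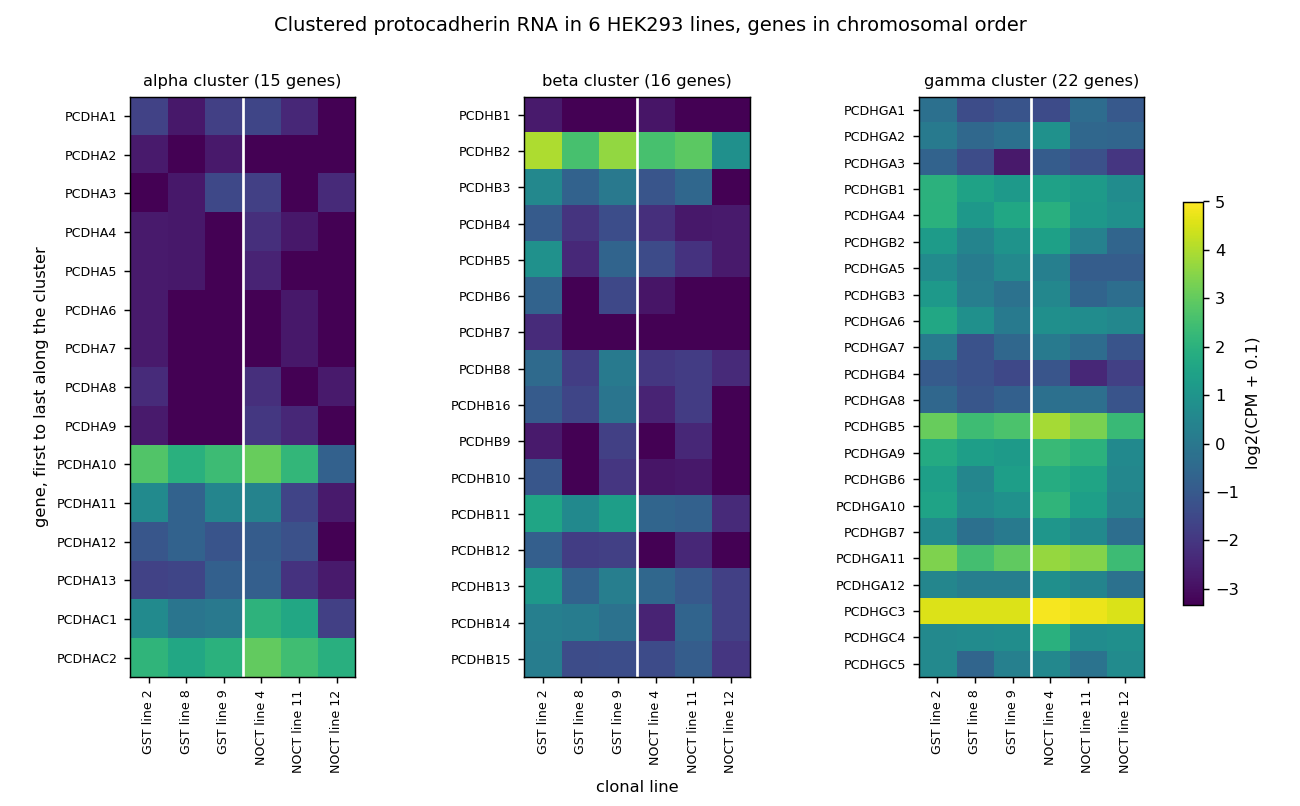
Level of each of the 53 genes (rows, in chromosomal order within a cluster) in the 6 lines (columns), as log2(CPM + 0.1), with a white line between GST and NOCT lines. PCDHA10, PCDHAC2, PCDHB2 and PCDHGC3 stand out in most lines, PCDHA1 to PCDHA9 are dark throughout, and NOCT line 12 is dark over most of the alpha and beta clusters.

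Levels of different genes were compared as CPM per kb of exon that no other gene overlaps, averaged over the 6 lines. PCDHGC3, a gamma C-type gene, had the highest level at 7.70 CPM per kb. The next were PCDHGB5 at 3.08, PCDHGA11 at 2.40, PCDHB2 at 1.97 and PCDHAC2 at 1.36 CPM per kb. PCDHGC3 led in each line, whereas the order below it differed between lines: PCDHB2 was second in GST lines 2 and 9 (3.78 and 3.00 CPM per kb) and PCDHGB5 in the other 4. The constant exons are shared, so only 53.5% (median) of an alpha gene's exon bases and 56.1% of a gamma gene's were its own, against 100% for beta genes, and reads of shared exons cannot be assigned to an isoform. Of the 50-base stretches in a beta gene's own exons, a median of 14.4% also occurred in transcripts of other genes, with 45.1% for PCDHB8 and 35.4% for PCDHB10, so counts of these paralogs are uncertain.

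PCDHA10, one of the alternate alpha isoforms, each with extracellular domains of its own, had 125, 82 and 103 counts in GST lines 2, 8 and 9 and 210, 99 and 10 in NOCT lines 4, 11 and 12. NOCT line 12 was far below the other 5, and the remaining NOCT lines were at or above the GST range. Its level was 5.16 ± 1.40 CPM in GST lines and 4.40 ± 3.88 CPM in NOCT lines (SD, n = 3 each). The fitted log2 fold change of NOCT over GST was -0.22 ± 0.71 (SE; edgeR quasi-likelihood test with Benjamini-Hochberg adjustment, adjusted p = 0.917). Without NOCT line 12 it was 0.30, with the opposite sign, and without NOCT line 4 it was -1.05.

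PCDHAC1, an alpha C-type isoform, had 28, 18 and 19 counts in GST lines and 104, 68 and 4 in NOCT lines. Lines 4 and 11 exceeded every GST line and line 12 was below every GST line, so the groups overlapped. The highest line stood 20.4-fold above the lowest (exact 95% counting interval 7.72 to 76.1), in CPM. The log2 fold change was 1.19 ± 0.78 (edgeR with Benjamini-Hochberg adjustment, adjusted p = 0.534). Without NOCT line 12 it was 1.72 (edgeR adjusted p = 0.0239), so the call turned on that line, and 5.42% of all genes were called without it. Without NOCT line 4 the fold change was 0.60.

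PCDHAC2, the other alpha C-type isoform, had 81, 67 and 79 counts in GST lines and 202, 119 and 74 in NOCT lines. It was the alpha gene that line 12 retained at the GST level, at 3.72 CPM against 3.76 ± 0.59 CPM in GST lines (SD, n = 3). PCDHA11, an alternate isoform next to PCDHA10, had 28, 11 and 26 counts in GST lines and 31, 5 and 1 in NOCT lines, lowest in lines 11 and 12. Its log2 fold change was -1.05 ± 0.82 and that of PCDHAC2 was 0.60 ± 0.30 (edgeR with Benjamini-Hochberg adjustment, adjusted p = 0.604 and 0.423). Without NOCT line 4 these were -2.90 and 0.27, and without NOCT line 12 that of PCDHA11 was -0.56.

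The makeup of the alpha counts differed between lines. PCDHA10 gave 43.9%, 41.4% and 40.6% of them in the GST lines and 35.4%, 32.1% and 10.8% in NOCT lines 4, 11 and 12. PCDHAC2 gave 28.4%, 33.8% and 31.1% in the GST lines and 34.1%, 38.6% and 79.6% in the NOCT lines. PCDHA10 thus had the largest share of counts in 4 lines, and PCDHAC2 had it in NOCT lines 11 and 12. These shares are not scaled by length, and PCDHA10 has 10002 exon bases of its own against 3452 for PCDHAC2. Per kb of such exon, PCDHAC2 was above PCDHA10 in each line. The levels were 1.24, 0.90 and 1.13 against 0.66, 0.38 and 0.51 CPM per kb in GST lines 2, 8 and 9. In NOCT lines 4, 11 and 12 they were 2.30, 1.55 and 1.08 against 0.83, 0.44 and 0.05 CPM per kb. In NOCT line 12 the PCDHAC2 share rested on 74 of 93 counts, with a Wilson 95% interval of 70.3% to 86.5%. In NOCT line 11 the intervals of the 2 shares overlapped, at 33.4% to 44.2% for PCDHAC2 and 27.2% to 37.6% for PCDHA10.

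**Figure D2:**
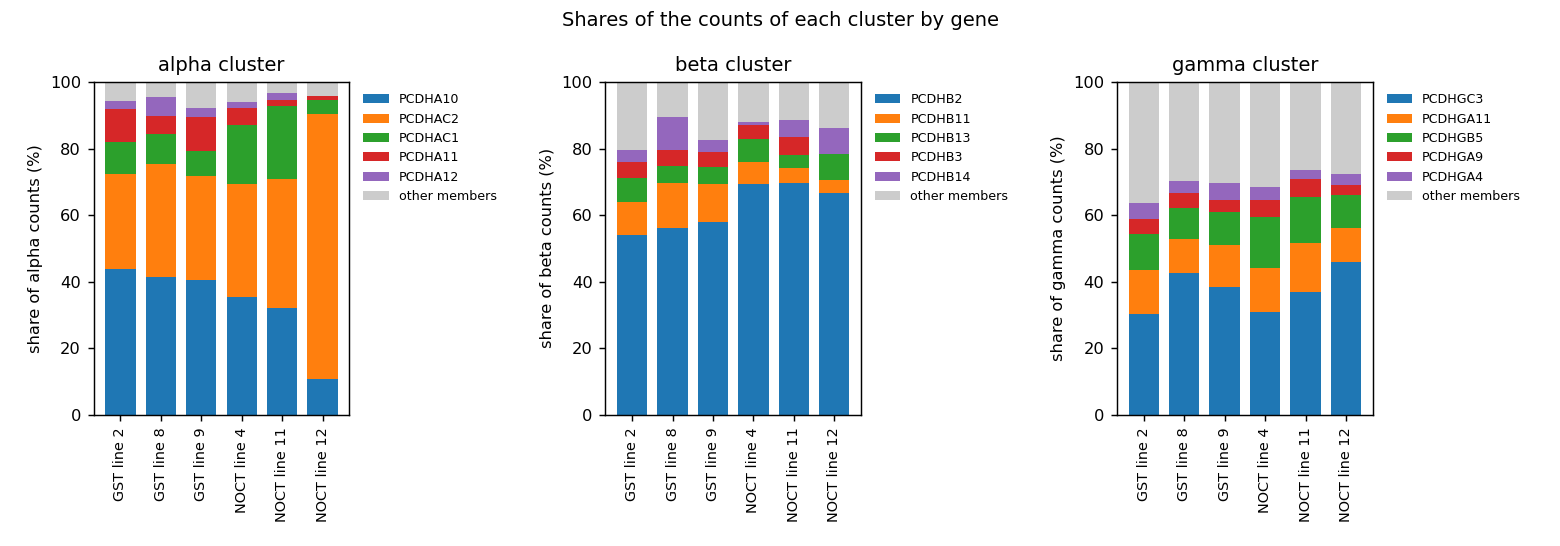
Share of each cluster's counts (y axis, percent, from 0 to 100) taken by its 5 genes with the most counts over all lines, for each line (x axis), with all other members in grey. PCDHAC2 takes 79.6% of the alpha counts in NOCT line 12, PCDHB2 leads the beta counts and PCDHGC3 the gamma counts in every line.

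PCDHB2 led the beta cluster in every line, with 54.0% to 57.9% of the beta counts in GST lines and 66.7% to 69.6% in NOCT lines. In NOCT line 12 that share rested on 34 of 51 counts (Wilson 95% interval 53.0% to 78.0%). Its counts were 295, 126 and 252 in the GST clones and 150, 165 and 34 in the NOCT clones. GST line 8 was below NOCT lines 4 and 11, so the groups overlapped, and NOCT line 12 was lowest. The means were 11.3 ± 4.96 and 5.00 ± 2.95 CPM (SD, n = 3 each), with a log2 fold change of -1.16 ± 0.52 (edgeR with Benjamini-Hochberg adjustment, adjusted p = 0.371), which was -0.76 without NOCT line 12.

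PCDHB11 had 54, 31 and 50 counts in GST lines and 14, 11 and 2 in NOCT lines. Every NOCT line was below every GST line. The levels were 2.25 ± 0.73 and 0.381 ± 0.245 CPM (SD, n = 3 each), the log2 fold change was -2.50 ± 0.52, and the edgeR p of 0.00123, the smallest of any tested member, became 0.129 after Benjamini-Hochberg adjustment. In the authors' deposited table, PCDHB11 had a log2 fold change of -1.04, a shrunken estimate that cannot be set against the unshrunken fit, and an adjusted p of 0.00103. DESeq2 on the same counts gave an adjusted p of 0.0024. An exact two-sided permutation test of its CPM gave p = 0.1, the smallest that 3 lines against 3 allow.

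PCDHB14 had 21, 22 and 16 counts in GST lines and 2, 12 and 4 in NOCT lines. Here too the groups did not overlap, and NOCT line 4, not line 12, was lowest. The log2 fold change was -1.83 ± 0.57 (edgeR with Benjamini-Hochberg adjustment, adjusted p = 0.232), and -2.81 without NOCT line 11. PCDHB13 had 39, 11 and 22 counts in GST lines and 15, 9 and 4 in NOCT lines, with GST line 8 inside the NOCT range in CPM. Its log2 fold change was -1.56 ± 0.58 (edgeR with Benjamini-Hochberg adjustment, adjusted p = 0.291), and -0.96 without GST line 2. PCDHB5 varied widely, at 33, 2 and 11 counts in GST lines and 7, 3 and 1 in NOCT lines. It was high in GST line 2 alone, and its highest-to-lowest ratio of 34.7 had an exact 95% counting interval of 5.81 to 1412.

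All 16 beta genes had a lower mean CPM in NOCT than in GST lines, a direction shared by 50% of 34539 genes with at least 1 count. Groups that did not overlap, with every NOCT line lower, were seen for 6 beta genes (PCDHB4, PCDHB8, PCDHB11, PCDHB12, PCDHB14 and PCDHB16), and for 6.52% of those 34539 genes. PCDHB12 had 9, 4 and 4 counts in GST lines and 0, 2 and 0 in NOCT lines, and such low counts carry little precision. The beta genes share sequence and lines, and are not independent of each other. The beta counts summed to 28.8, 10.5 and 21.4 CPM in GST lines and 8.49, 10.6 and 2.56 CPM in NOCT lines. GST line 8 lay level with NOCT line 11, so the summed levels of the groups overlapped. The log2 ratio of the group means (20.2 ± 9.25 and 7.23 ± 4.18 CPM, SD, n = 3 each) was -1.48, and -2.01 without PCDHB2.

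**Figure D3:**
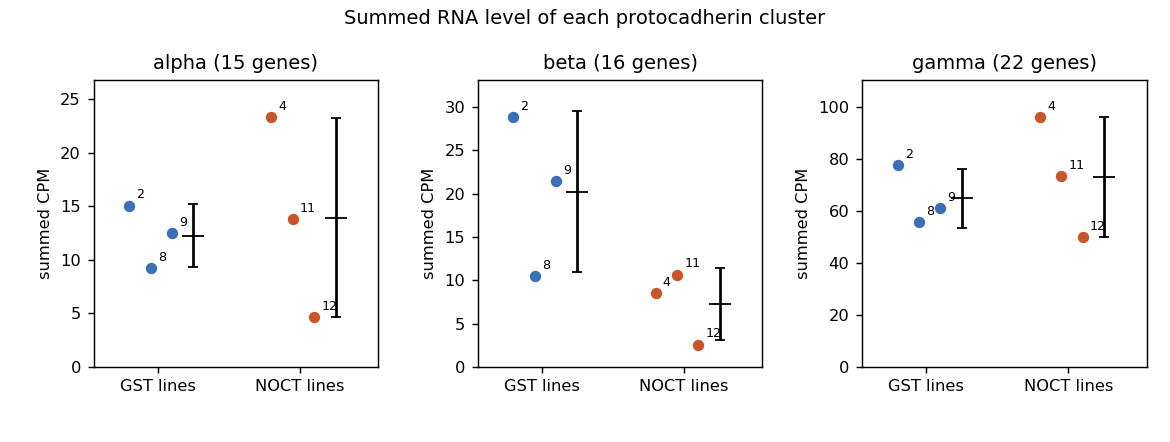
Summed CPM of all members of each cluster (y axis) for the 3 GST lines (blue) and the 3 NOCT lines (orange), numbered by line, with the group mean and SD as bars. The beta sum is highest in GST lines 2 and 9 (28.8 and 21.4 CPM), and NOCT line 12 has the lowest sum in each cluster.

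PCDHGC3, the gamma C-type gene that led its cluster in every line, had 442, 510 and 476 counts in GST lines and 757, 604 and 456 in NOCT lines. In CPM it stood at 23.3, 23.7 and 23.4 in GST lines and 29.8, 27.1 and 22.9 in NOCT lines, and the highest line exceeded the lowest by 1.30-fold. It was the most even of the 28 tested members across lines, and the groups overlapped through line 12. The log2 fold change was 0.18 ± 0.13 (edgeR with Benjamini-Hochberg adjustment, adjusted p = 0.572). PCDHGC4 had 27, 33 and 32 counts in GST lines and 97, 35 and 33 in NOCT lines, high in line 4 alone.

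PCDHGB5, a gamma B isoform, had 158, 113 and 125 counts in GST lines and 375, 223 and 98 in NOCT lines. PCDHGA11, a gamma A isoform, had 197, 122 and 156 counts in GST lines and 321, 241 and 102 in NOCT lines. Both showed the same order of NOCT lines, with line 4 highest and line 12 lowest of all 6 in CPM. Their log2 fold changes were 0.59 ± 0.37 and 0.27 ± 0.35 (edgeR with Benjamini-Hochberg adjustment, adjusted p = 0.518 and 0.764).

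PCDHGA5, a gamma A isoform, had 29, 22 and 29 counts in GST lines and 28, 10 and 9 in NOCT lines, with line 4 inside the GST range. Its log2 fold change of -0.96 ± 0.42 had an unadjusted edgeR p of 0.0527 and a Benjamini-Hochberg adjusted p of 0.366, and was -1.55 without NOCT line 4. PCDHGB2 had 43, 27 and 37 counts in GST lines and 65, 26 and 11 in NOCT lines, and PCDHGB3 had 41, 23 and 16 in GST lines and 34, 12 and 14 in NOCT lines. PCDHGB2 was highest in NOCT line 4 and lowest in NOCT line 12, PCDHGB3 was highest in GST line 2 and lowest in NOCT line 11, and both overlapped between the groups. The fold change of PCDHGB2 was -0.30 ± 0.51 on the log2 scale, and 0.074 without NOCT line 12.

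The summed alpha level was 12.2 ± 2.93 CPM in GST lines and 13.9 ± 9.32 CPM in NOCT lines, and the summed gamma level 64.7 ± 11.3 and 73.1 ± 23.0 CPM (SD, n = 3 each). The log2 ratios of these means were 0.19 and 0.18, both below the spread between NOCT lines. Each changed sign without NOCT line 4, to -0.41 for alpha and -0.070 for gamma. NOCT line 12 held 38.1% of the GST mean for alpha, 12.7% for beta and 77.2% for gamma.

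A minimum count in enough lines was met by 28 of the 53 genes (4 alpha, 5 beta and 19 gamma), which entered the fit across 17261 genes. None was called at an adjusted p under 0.05, where 0.0579% of all genes tested were called. An unadjusted edgeR p under 0.05 was reached by 3 members (PCDHB11, PCDHB13 and PCDHB14), all lower in NOCT lines, beside 6.52% of all genes in that direction. In the higher direction it was reached by 0 members, beside 7.38% of all genes. These 3 members met the minimum count only with the GST lines, where they were high. DESeq2 called 1 member, PCDHB11, and edgeR without the filter on low counts called 3 of 53 (PCDHB2, PCDHB11 and PCDHB14), where 3.41% and 2.57% of the genes tested were called. The authors' deposited table listed 43 members, 1 of them (PCDHB11) with an adjusted p under 0.05, where 2.87% of its genes were called.

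By sign, 15 of the 28 tested genes were higher and 13 lower in NOCT lines, beside 49.3% lower among all genes tested. The medians of the log2 fold change were -1.56 for the 5 tested beta genes, 0.19 for the 4 alpha genes and 0.25 for the 19 gamma genes, of which 13 were higher, against 0.005 for all genes tested. All 5 tested C-type genes were higher, with a median of 0.60, and none passed the test. The 5 beta genes were lower under every scaling and with any line left out. Of these, PCDHB2 alone had at least 10 counts in every NOCT line. PCDHB3, PCDHB11, PCDHB13 and PCDHB14 met the minimum count only with the GST lines, where they were high. Their direction is thus not independent of the filter. Without NOCT line 4 the gamma median was -0.12, with 10 of 19 lower, the alpha median -0.39 and the C-type median 0.15. Without GST line 8, 1 C-type gene was lower. Among the 28, groups that did not overlap were found for 2 genes in the lower direction (9.54% of all genes) and 0 in the higher direction (10.5%).

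The members differed more between lines of one group than most genes did. The quasi-likelihood dispersion, which measures the spread within groups relative to that of genes at the same level, had a median of 1.63 over the 28 genes and of 0.526 over all genes tested. It exceeded the latter in 27 of 28, PCDHGC3 being the exception at 0.274, and reached 7.99 for PCDHA10 and 6.29 for PCDHAC1. By cluster the medians were 5.77 for alpha, 2.13 for beta and 1.31 for gamma. A highest line at least 4-fold above the lowest was seen for 9 of the 24 genes with 30 counts in a line (PCDHA10, PCDHA11, PCDHAC1, PCDHB2, PCDHB5, PCDHB11, PCDHB13, PCDHGB2 and PCDHGB3), beside 6.62% of all genes with that count. Of these 9, PCDHGB3 alone was not lowest in NOCT line 12.

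NOCT line 12 was the lowest of the 6 lines for 19 of the 28 tested genes, beside 17.9% of all genes. NOCT line 4 was the highest for 15 (21.5% of all genes) and GST line 2 for 12 (17.5%), among them the 5 tested beta genes. The clusters therefore ordered the lines differently: GST line 2 led the beta genes and NOCT line 4 led 12 of the 19 gamma genes and 3 of the 4 alpha genes. In NOCT line 12, the tested alpha and beta genes had median log2 levels of -2.64 each relative to the GST mean. The gamma A genes had -0.68, the gamma B genes -0.76 and the 5 C-type genes -0.02. PCDHAC1 and PCDHAC2 are in both the alpha and the C-type group, and stood at -2.43 and -0.02 in that line. Levels more than 1 log2 unit below the GST mean were found in NOCT line 12 for 10 of the 28 members, beside 4.8% of all genes. Line 11 had 5 such members (3.49% of all genes) and line 4 had 4 (4.84%), all of the latter beta genes.

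**Figure D4:**
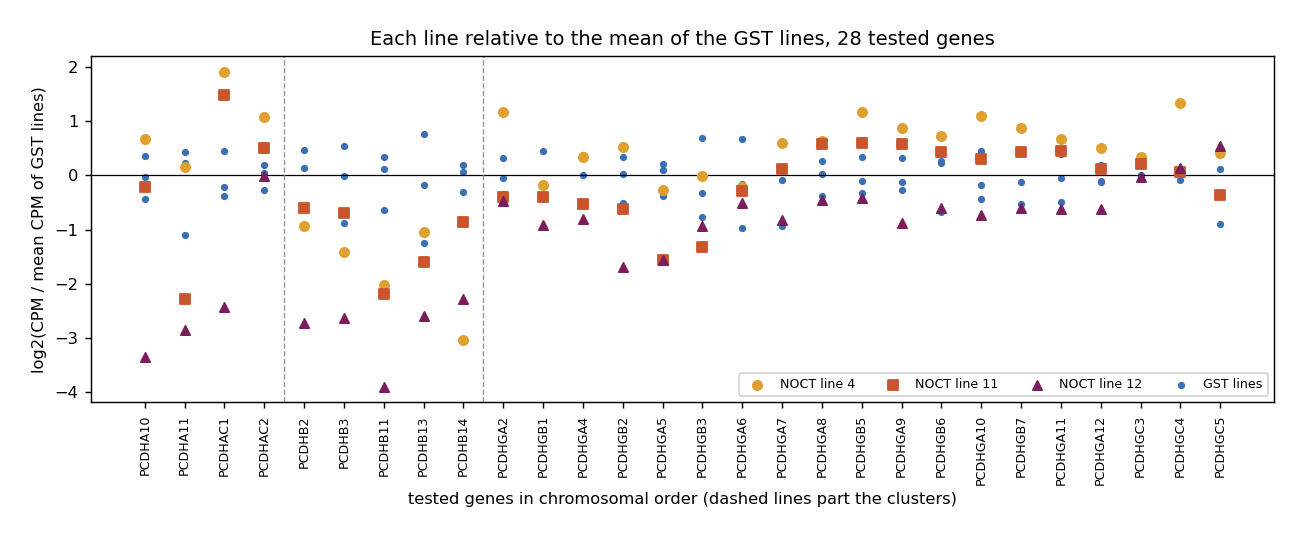
Level of each line relative to the mean of the GST lines (y axis, log2), for the 28 tested genes in chromosomal order (x axis), with a count under 3 taken as 3 for NOCT lines. NOCT line 12 (triangles) has a median of -2.64 over the alpha and over the beta genes shown and of -0.02 over the C-type genes. PCDHAC1, at -2.43 in that line, and PCDHAC2, at -0.02, are in both the alpha and the C-type group. NOCT lines 4 and 11 lie above 0 from PCDHGA7 to PCDHGA12.

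Other genes that act with this locus were examined as lists. Of 24 regulators of the clusters, among them CTCF, cohesin subunits, DNA methyltransferases and SMCHD1, 9 were higher and 15 lower in NOCT lines, 0 were called, and the median log2 fold change was -0.03. The smallest p in that list belonged to WIZ, a zinc finger protein, at -0.33, followed by STAG1, a cohesin subunit, at -0.24 and SETDB1, a histone methyltransferase, at 0.18 on the log2 scale. Among 22 genes for proteins that cleave or bind protocadherins, 11 were higher and 11 lower and 0 were called, with NCSTN at 0.42 and AXIN1 at -0.52 on the log2 scale. At an unadjusted edgeR p under 0.05, 2 regulators were lower, and 2 of the 22 genes were higher and 2 lower.

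Protocadherins outside the clusters and neighbours of the array gave the level of like genes and of the same region. Of 12 non-clustered protocadherins, 8 were tested, 2 higher and 6 lower, with a median of -0.18 and 0 called. PCDH10 had 52.6, 16.1 and 19.5 CPM in GST lines and 8.26, 9.51 and 14.3 CPM in NOCT lines, with no overlap. Its log2 fold change was -1.46 ± 0.45 (edgeR with Benjamini-Hochberg adjustment, adjusted p = 0.228). PCDH7 went the other way, also with no overlap. Its means were 103.2 ± 13.7 CPM in GST and 133.4 ± 7.50 CPM in NOCT lines (SD, n = 3 each). Its log2 fold change was 0.37 ± 0.11 (edgeR with Benjamini-Hochberg adjustment, adjusted p = 0.230). PCDH9 was lower with no overlap, at -0.25 on the log2 scale. Of all genes tested, 9.54% were lower and 10.5% higher with no overlap. Of 21 other genes around the array on chromosome 5, 19 were tested and 0 called. Their median level in NOCT line 12 was -0.005 on the log2 scale relative to the mean of all lines, so the low alpha and beta values of that line were not seen in the median of the neighbours.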

How the data were processed

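RNA-seq libraries of clonal HEK293 lines, 3 GST and 3 NOCT ∆(2-15) lines, were analysed. The deposited files hold 1 read count per gene and line, which the authors made with tools that include cutadapt 1.8.1, Trimmomatic 0.33, STAR 2.5.2b, HTSeq 0.6.1p1 and DESeq2 1.16.1 on GRCh38, per the submitters' processing notes. The libraries were strand-specific 50 bp reads from RNA depleted of ribosomal RNA, per the labels' protocols, and the annotation release is not given in the sources used here. The deposited TPM values, per the file headers, were used for symbols and for one alternative, with pseudocounts of 1 and 0.1. The authors' deposited table, per the file headers, gives log2 fold changes, p-values, a mean signal and a test score, of which the log2 fold changes and adjusted p-values were used. Reads in no feature (26.5% to 30.6% of a file), ambiguous reads (2.02% to 2.41%) and reads not uniquely aligned (13.3% to 14.6%) stayed out of the library sizes.

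Counts were fitted with edgeR 4.0.16 in R 4.3.3 (TMM factors, filterByExpr, quasi-likelihood test, all 6 lines), with Benjamini-Hochberg adjustment over 17261 genes and a threshold of 0.05. The script was tested on simulated data. CPM is the count divided by the TMM-scaled library size, times 1000000. A gene with 10 counts in a line was called detected, and ratios between lines needed 30 counts in the highest line. The ratio of deposited counts to TPM gave gene lengths equal to the exon bases of GENCODE annotation, from which the unshared exon bases were computed. PCDHA14, described as a pseudogene in the deposited table, had 0 of 2298 exon bases of its own and was dropped. The pairs of libraries within a group differed by far more than sampling noise (chi-square per gene 7.40 to 42.6, where sampling noise gives about 1).

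Named members were those past the adjusted threshold, the leading gene of a cluster in a line, those varying 4-fold between lines and the 4 with the smallest p, with other members added to describe the clusters; for other lists, the 3 genes with the smallest p were named, except 1 that is not reported here. The members, the lists and the rules were chosen with earlier results of these data known. Alternatives were DESeq2 1.42.0, RLE factors, spike-in totals, no filter, limma 3.58.1 on log2 TPM, other thresholds and leaving out each line.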

Additional observations from a re-analysis of the deposited data

How the results depend on the processing

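In place of the 10 genes called, DESeq2 gave 508, spike-in totals as library sizes gave 22 and no filter beyond 1 count gave 888, and leaving out a line gave 0 (without GST line 9) to 970 (without NOCT line 12). In place of 0 members called, DESeq2 gave 1 and no filter gave 3, and leaving out a line gave 0 to 2, the 2 being PCDHAC1 and PCDHB11 without NOCT line 12, where 5.42% of all genes were called. PCDHB11 had an adjusted p of 0.000269 without the filter and of 0.0267 without NOCT line 12, and PCDHB2 and PCDHB14 had 0.0265 and 0.0497 without the filter. At 30 counts 24 members were detected in place of 37, and at 2-fold 23 members varied in place of 9, beside 25.2% of all genes. Leaving out a line gave log2 ratios of -0.41 to 0.60 for the summed alpha level, -1.87 to -1.08 for beta and -0.070 to 0.39 for gamma, with the alpha and gamma signs changed without NOCT line 4. The log2 fold change ranged from -1.05 to 0.30 for PCDHA10 and from -1.04 to 0.074 for PCDHGB2 when a line was left out, lowest without NOCT line 4 and with the sign changed without NOCT line 12. Spike-in totals moved the median of all genes to 0.15 on the log2 scale, and the beta median was then -1.42. The cause was not tested for any of these. Counts of single members are low, which limits the precision of isoforms under about 30 counts. No paired analysis was possible because the GST and NOCT lines share no line numbers.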

Other observations

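Pseudogenes of the array were left out of the members. Those of the gamma B type had counts in every line, as did the beta pseudogene PCDHB18P, with 5 to 14 counts. PCDHGB8P had 1.64, 1.35 and 1.23 CPM in GST lines 2, 8 and 9 and 2.63, 1.79 and 0.803 CPM in NOCT lines 4, 11 and 12, and PCDHGB9P had 0.528, 0.975 and 0.787 CPM in GST lines and 2.04, 1.66 and 0.703 CPM in NOCT lines. Both were highest in NOCT line 4, and their groups overlapped through NOCT line 12.

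Genes of the lists in which single lines stood apart were chosen after their values were seen. RAD21, a cohesin subunit, had 170.9, 178.5 and 183.0 CPM in GST lines and 181.1, 174.8 and 266.9 CPM in NOCT lines, with NOCT line 12 above the other 5. SMCHD1, a chromatin protein, had 425.4, 399.0 and 349.8 CPM in GST lines and 195.2, 285.4 and 398.1 CPM in NOCT lines, lowest in line 4. PCDH1, a non-clustered protocadherin gene on the far side of the gamma cluster, had 5.07 to 6.44 CPM in 5 lines and 2.51 CPM in NOCT line 12. Their part in the protocadherin levels was not tested.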
